A study of Drosophila melanogaster with 34 samples.

Results

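The sites bound by Crooked legs (Crol) in S2 cells, a cultured Drosophila line of embryonic origin, were set beside those bound in larval tissues, namely imaginal discs and brains of the third instar from the wild type (WT). The members are all Crol peaks that each source's list places on the dm3 arms 2L, 2R, 3L, 3R, X and 4. There were 9593 in S2 cells and 10139 in larval tissues, which is 19732 of the 47852 peaks in the 5 lists analysed here. Both sources are labelled wild type, no treatment is named for either, and both were precipitated with CrolN, an antibody raised against residues 1 to 188 of Crol isoform A. The other 3 lists, all from larval brains and discs, held 9883 Crol peaks from crol knockout (crol-KO) larvae and peaks of Combgap (Cg), 8938 in WT and 9299 in crol-KO. They served to describe the shared and unshared peaks further, and since they come from the same kind of tissue as the WT larval Crol list they are not independent of it. Each list was called by the authors on the pooled reads of 2 replicates, so the comparison has no replicate check and no p-value is given. A first set of 2 WT larval CrolN samples was not analysed here. S2 is a single cell line, whereas each larval sample mixes the cell types of brains and discs of several larvae, so a larval peak sums over many cell types. The titles of the S2 samples name S2 cells but their tissue field names discs and brains. The title was followed, and a list of peaks holds no expression with which a cell type could be checked.

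Crol is a zinc finger protein of the C2H2 type, named for the bent legs of mutants that die near the end of metamorphosis, and its gene responds to the steroid hormone ecdysone. Polycomb group proteins keep developmental genes silent, and in flies they are brought to DNA at Polycomb response elements by sequence-specific proteins, among them Cg, which is also a zinc finger protein. S2 cells resemble blood cells of the macrophage lineage and are known to carry fewer copies of the X than of the autosomes, while brains and discs hold neurons, glia and the epithelial precursors of adult organs. In ChIP-seq a peak is a stretch where fragments crosslinked to the protein pile up, and its summit, the base with the highest pileup, is the best estimate of where the protein sits. No gene annotation of dm3 was used, so sites are given by position, counted from 1, and not by gene.

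Crol peaks were wider and stood higher above background in S2 cells. The median width was 619 bp in S2 cells (interquartile range 467 to 967 bp) and 523 bp in larval tissues (407 to 731 bp), and the longest peaks measured 8863 and 4112 bp. Peaks of at least 1500 bp numbered 951 in S2 cells and 363 in larval tissues. Fold enrichment, the authors' measure of how far the reads at the summit exceed the local background, had a median of 4.63 in S2 cells and 3.39 in larval tissues, with maxima of 34.7 and 18.2. Estimated depth moved with these values. The depth estimated from the lowest background of each list was 5.77 M reads for S2 cells and 4.24 M for larval tissues. It need not equal the number of ChIP reads. The median pileup at the summit was 100 and 62 reads. The part of depth in the widths and fold enrichments was not tested, and strength is therefore compared below by rank within each list.

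At an overlap of 1 bp, a majority of the sites of either source were bound in the other, but not when 50% of both peaks had to overlap, where the shares were 44.6% of S2 and 42.2% of larval peaks. Of the S2 peaks, 5584 overlapped a larval peak by at least 1 bp, which is 58.2% (exact Clopper-Pearson 95% interval 57.2 to 59.2), and 4009 did not. In the opposite direction 5921 larval peaks (58.4%, 57.4 to 59.4) overlapped one of S2 cells and 4218 did not. These 2 shares are the background for every share below that counts overlaps between S2 and WT larval Crol peaks. Without S2 peaks of 1500 bp or more, the larval share was 47.6%. The intervals cover counting error only and treat neighbouring peaks as independent. Most overlaps joined 1 peak to 1 peak. There were 5990 overlapping pairs, and 5090 of them were one-to-one, which covers 91.2% of the shared S2 peaks and 86.0% of the shared larval peaks. An S2 peak spanned 2 or more larval peaks in 369 cases, up to 4, with a median S2 width of 1948 bp, and a larval peak spanned 2 or more S2 peaks in 67 cases, up to 3.

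Shared sites were the stronger ones, more steeply so in S2 cells. Among S2 peaks the share with a larval overlap climbed from 18.4% (16.0 to 21.0) in the weakest decile by fold enrichment to 85.0% (82.6 to 87.2) in the strongest. Among larval peaks it climbed from 42.0% (39.0 to 45.1) to 79.5% (76.9 to 81.9). A weak larval peak was thus more often found in S2 cells than a weak S2 peak was in larval tissues, and the intervals of the weakest deciles did not overlap. The median fold enrichment was 5.76 for shared and 3.37 for unshared S2 peaks, and 3.69 and 3.04 in the larval list. Pileups moved alike, with medians of 128 and 71 reads in S2 cells and 74 and 50 in larval tissues.

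**Figure D1:**
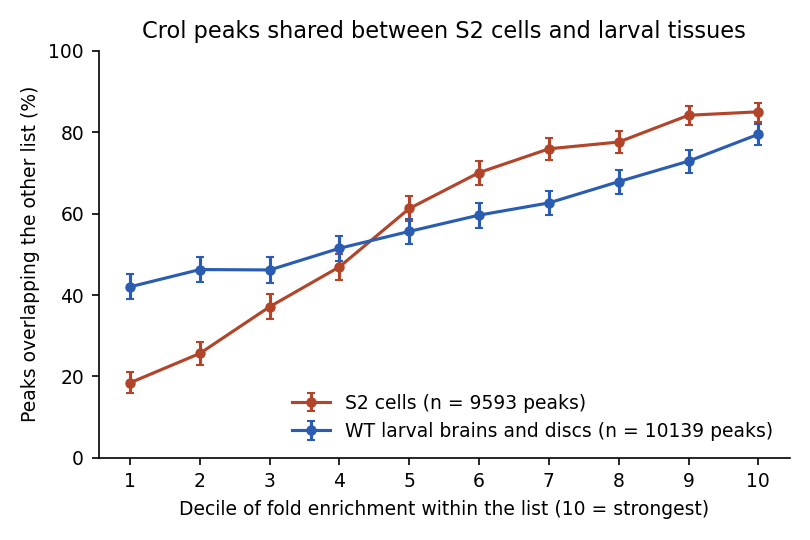
Share of Crol peaks, in percent, that overlap a peak of the other source, by decile of fold enrichment within each list, for 9593 S2 peaks and 10139 larval peaks; bars are exact 95% intervals for counting error. The S2 curve runs from 18.4% to 85.0% and the larval curve from 42.0% to 79.5%.

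Wide peaks were shared more often, and among peaks of like strength the difference by width was smaller. Of the S2 peaks of at least 1500 bp, 83.7% (81.2 to 86.0) had a larval overlap, and of the larval peaks of that width 82.1% (77.8 to 85.9) had an S2 overlap. The narrowest quintile of S2 peaks, up to 440 bp, was shared in 29.6% (27.6 to 31.7). In the weakest quartile of S2 peaks the narrower part was shared in 23.3% (20.9 to 25.8) and the wider part in 25.1% (22.6 to 27.6), and in the strongest quartile the shares were 82.1% (79.8 to 84.2) and 86.1% (84.0 to 88.0). In the second weakest quartile they were 48.6% (45.8 to 51.5) and 54.5% (51.7 to 57.4), with intervals that did not overlap, and in the second strongest 72.3% (69.7 to 74.9) and 73.7% (71.1 to 76.2). In the larval list the corresponding values were 45.0% (42.3 to 47.8) and 43.6% (40.8 to 46.3) in the weakest quartile, and 74.3% (71.8 to 76.7) and 75.4% (73.0 to 77.8) in the strongest.

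Where a site was bound in both sources, Crol sat at nearly the same base. In the 5090 one-to-one pairs the summits lay a median of 37 bp apart (order-statistic 95% interval 36 to 39), with an interquartile range of 16 to 85 bp. The distance was at most 25 bp in 37.2% of pairs, at most 50 bp in 60.4%, at most 100 bp in 78.7% and at most 200 bp in 88.9%. In 36 pairs both summits fell on the same base. The offset had no direction along the chromosome, with a signed median of 0 bp. These distances are short beside the 300 bp to which the authors extended each read. Stronger pairs agreed more closely. The median distance was 31 bp (28 to 33) in the quartile of pairs with the lowest sum of ranks, which are the strongest pairs, and 48 bp (44 to 51) in the weakest quartile.

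**Figure D2:**
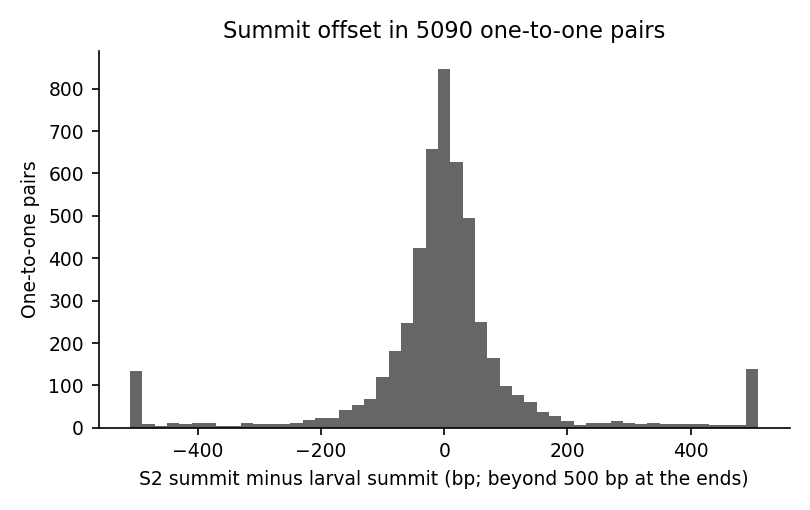
Number of one-to-one pairs by the S2 summit position minus the larval summit position, in bp, in steps of 20 bp, for 5090 pairs, with offsets beyond 500 bp drawn at the ends. The pairs gather around 0, and 78.7% lie within 100 bp.

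In 564 pairs, 11.1% (10.2 to 12.0), the summits were more than 200 bp apart, up to 2705 bp. These were wide peaks, with a median of 1180 bp in S2 cells and 863 bp in larval tissues, against 682.5 and 543 bp over all pairs. Of the pairs in the widest quartile of S2 peaks 25.8% (23.4 to 28.3) had summits this far apart, against 5.50% (4.31 to 6.90) in the narrowest quartile. Within such overlaps the highest point of Crol binding lay at a different place in each source.

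At the same site the S2 peak was usually the wider one. The S2 peak was 1.21 times (1.20 to 1.22) as wide as its larval partner in the median pair and wider in 75.8% of pairs. The ratio was 1.12 (1.10 to 1.14) in the strongest quartile of pairs and 1.34 (1.31 to 1.38) in the weakest. On X it was 1.09 (1.06 to 1.13), below the ratios of 1.22 to 1.27 on 2L, 2R, 3L, 3R and 4, although the interval on 4 (1.10 to 1.37, 56 pairs) overlapped that on X.

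The order of sites by strength was only partly kept. Across the 5090 pairs the fold enrichments correlated with a Spearman rho of 0.510, a description across sites that share base composition and mappability. Ranked by the authors' −log10 q-value, rho was 0.535. Both peaks fell in the same quartile of their own list in 2269 pairs (44.6%), in neighbouring quartiles in 1924 (37.8%) and in the strongest of one and the weakest of the other in 171 (3.36%). The strongest quartiles of both lists met in 1076 pairs, out of 1742 pairs with an S2 peak and 1658 with a larval peak in that quartile.

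**Figure D3:**
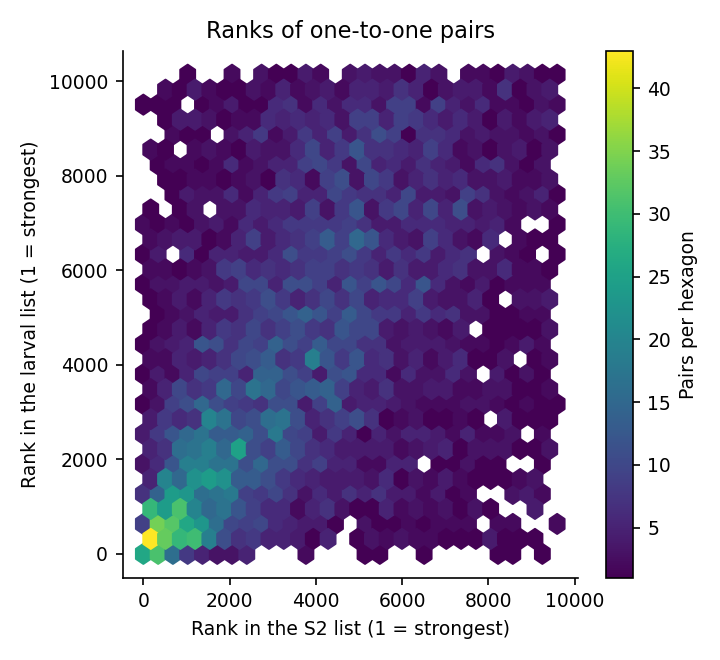
Rank of the larval peak against the rank of the S2 peak, by fold enrichment within each list with 1 as the strongest, for 5090 one-to-one pairs; colour gives the number of pairs in each hexagon. Pairs crowd at the strong end of both lists and spread widely elsewhere, with a Spearman rho of 0.510.

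Most of the strongest sites of one source were bound in the other, and a smaller part of them were also among its strongest. Of the 100 strongest S2 peaks 93.0% (86.1 to 97.1) overlapped some larval peak, and 20 (20%, 12.7 to 29.2) overlapped 1 of the 100 strongest larval peaks. Of the 100 strongest larval peaks 87.0% (78.8 to 92.9) overlapped some S2 peak. Of the 1000 strongest S2 peaks 84.8% (82.4 to 87.0) were shared, and 400 (40%, 36.9 to 43.1) met 1 of the 1000 strongest larval peaks. For the 2000 strongest this held for 940 (47.0%, 44.8 to 49.2). Of the 1000 strongest larval peaks 79.6% (77.0 to 82.1) were shared.

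The pairs with the lowest sum of ranks show what a site strong in both sources looked like. On 2R the S2 peak from 18959349 to 18960398 ranked 8 with a fold enrichment of 28.3, its larval partner from 18959405 to 18960346 ranked 3 with 15.1, and their summits differed by 1 bp. On 3L the S2 peak from 11700876 to 11702365 ranked 3 with 31.9, the larval peak from 11700888 to 11702171 ranked 10 with 12.6, and the summits were 27 bp apart. On X the S2 peak from 7520694 to 7521980 ranked 11 and the larval peak from 7520641 to 7521695 ranked 7, with summits 71 bp apart. The remaining ones lay on 2R, where the S2 peak from 11236701 to 11238000 ranked 5 and its partner 19, and on 2L, where the S2 peak from 5461043 to 5461736 ranked 51 and its partner 6. At all 5 sites the crol-KO Crol list and both Cg lists had a peak too. This was usual for strong shared peaks. In the strongest decile all 3 lists held 786 of 806 shared larval peaks (97.5%) and 740 of 816 shared S2 peaks (90.7%).

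Other pairs shared a site while their ranks lay far apart. They were picked for that difference, so their ranks are a description. The S2 peak on 2R from 8896126 to 8897333 ranked 15 with a fold enrichment of 25.7, while its larval partner ranked 9508 with 2.22, and the summits were 582 bp apart. On 2L the S2 peak from 2804564 to 2805408 ranked 469 and the larval peak 9837, and on 3R the S2 peak from 17478284 to 17479582 ranked 455 and the larval peak 9804. Their summits differed by 2 bp at both sites, so a faint larval peak stood under a strong S2 peak. The opposite cases were the larval peaks on 2R from 16801302 to 16802081, on 3L from 1592701 to 1593490 and on 3R from 13536409 to 13537706, which ranked 159, 509 and 311 while their S2 partners ranked 9202, 9477 and 9148. The larval-strong peaks overlapped a peak in all 3 other larval lists, whereas the larval partners of the S2-strong peaks overlapped 1 at most, from crol-KO Crol at the 2R site.

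Unshared sites of the 2 sources differed in whether other larval lists held them. Of the unshared larval peaks 65.9% (64.4 to 67.3) overlapped a crol-KO Crol peak, 57.9% (56.4 to 59.4) a WT Cg peak and 56.0% (54.5 to 57.6) a crol-KO Cg peak. Of the unshared S2 peaks only 18.6% (17.4 to 19.9), 15.9% (14.8 to 17.1) and 21.1% (19.8 to 22.3) did. The corresponding shares were 92.4%, 88.5% and 90.5% among shared larval peaks and 93.2%, 89.6% and 91.6% among shared S2 peaks. Unshared peaks of both sources thus lay below the shared ones in every list. Shared sites were nearly always held by another list, since at least 1 of the 3 covered 96.1% (95.6 to 96.6) of the shared S2 peaks and 95.6% (95.04 to 96.1) of the shared larval peaks. All 3 lists come from larval tissue, and unshared larval peaks are by definition bound there while unshared S2 peaks were not called there, so the direction of this difference follows from how the peaks were divided and is given as a description. The crol-KO larvae need not lack Crol, since the study saw faint Crol bands in them and points to protein supplied by the mother.

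The same values are given for strong sites, as a description with the same limit. The strongest decile of the larval list held 208 peaks without an S2 overlap, and all 208 overlapped a peak of at least 1 other larval list, 200 of them a WT Cg peak (96.2%, 92.6 to 98.3). The strongest decile of the S2 list held 144 peaks without a larval overlap, and 131 of these overlapped no peak of the other 3 larval lists either. A WT Cg peak lay at 2 of the 144 (1.39%, 0.169 to 4.93). Among shared peaks of these deciles, 804 of 806 larval (99.8%) and 762 of 816 S2 peaks (93.4%) overlapped a WT Cg peak. In the weakest quartile, at least 1 other list held 58.5% (55.9 to 61.1) of the unshared larval and 22.4% (20.5 to 24.4) of the unshared S2 peaks.

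Unshared S2 peaks lay closer to binding of the other source than unshared larval peaks did. The gap from an unshared S2 peak to the nearest larval peak had a median of 2844 bp, and that from an unshared larval peak to the nearest S2 peak 5995.5 bp. A gap above 50000 bp was found for 9 unshared S2 peaks (0.224%, 0.103 to 0.426) and for 157 unshared larval peaks (3.72%, 3.17 to 4.34), with maxima of 94365 and 206191 bp. Missing the other list by up to 1000 bp accounted for 882 (22.0%) of the unshared S2 and 598 (14.2%) of the unshared larval peaks. The unshared S2 peaks were also packed more tightly within their own list, with a median of 2118 bp to the next S2 summit against 2887 bp for shared ones. In the larval list these medians were 2689 and 2927 bp.

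The strongest S2 sites with no WT larval Crol peak within 1000 bp lay mostly on 3L. The first, from 4413571 to 4416290, was the strongest S2 peak of all and 2720 bp wide, with the nearest WT larval Crol peak 3803 bp away. The second (8665320 to 8666671) and the third (5895138 to 5895989) of these 3L sites ranked 17 and 23. Their nearest WT larval Crol peaks lay at 1685 and 2305 bp. The first and the second overlapped no other larval list, but the third overlapped a crol-KO Crol peak and a crol-KO Cg peak. The fourth and the fifth were on 3R from 26132769 to 26134955, ranked 79 with a fold enrichment of 19.4 and a pileup of 322 reads, and on 3L from 11548645 to 11550642, ranked 92 with 18.9 and 291 reads. The 3R peak overlapped no larval list, whereas the 3L peak overlapped all 3 other larval lists. Near that 3L peak the larval Crol list skips a peak number, so a larval peak there may be among those not analysed here. Of the larval sites of this kind, the strongest lay on 2R (2462009 to 2463115), ranked 27 and was 37163 bp from S2 binding. Those next in rank were both on 3L, ranked 28 (10731259 to 10734636, where the S2 list skips a number) and 60 (3536722 to 3537429), with S2 binding at 3594 and 4796 bp. The fourth was on 2R from 2434577 to 2435514, ranked 61 with a fold enrichment of 10.0 and a pileup of 221 reads, and 64764 bp from the nearest S2 peak. The fifth was on X from 8107755 to 8108633, ranked 62 with 9.99 and 139 reads. Both overlapped all 3 other larval lists.

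Larval sites without S2 binding came in longer runs. A run is a series of neighbouring peaks of one list, none with a peak of the other list within 1000 bp. Such peaks made up 35.7% (34.8 to 36.6) of the larval list and 32.6% (31.7 to 33.5) of the S2 list. The part of this difference in the lengths of runs was not tested. The 3620 such larval peaks formed 1445 runs, of which 185 held at least 5 peaks and 27 at least 10. The 3127 such S2 peaks formed 1668 runs, of which 92 held at least 5 and 5 at least 10. The longest larval run held 29 peaks on 2R from 2381704 to 2498730, a span of 117027 bp with 0 S2 peaks. Fold enrichments there lay between 2.18 and 11.3, and 16 of the peaks overlapped a crol-KO Crol peak and 17 a WT Cg peak. The next held 26 peaks on 3L from 22309951 to 22635914, with fold enrichments up to 5.49, of which 14 overlapped a crol-KO Crol peak. A further run of 18 peaks lay nearby on 3L from 22071278 to 22173470, of which 4 overlapped a crol-KO Crol peak and 5 a WT Cg peak. The longest S2 runs held 11 peaks each, on 3L from 8671490 to 8702465 and on 2L from 13066733 to 13098764 and from 20925932 to 21042881. Of the 11 peaks of a run, 0 in the first and 1 in each of the others overlapped a crol-KO Crol peak. The third of these S2 runs had 9 larval peaks within its span, each more than 1000 bp from the S2 peaks.

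Peak density was highest on 2R and lowest on 4 in both sources. It ran from 69.2 peaks per Mb on 4 to 89.3 on 2R in S2 cells, and from 71.7 on 4 to 94.1 on 2R in larval tissues. The Poisson 95% intervals on 4 were wide, 55.2 to 85.7 in S2 cells and 57.4 to 88.4 in larval tissues. They included the densities on X, 2L, 3L and 3R, so the place of 4 as the lowest is not resolved. The S2 to larval ratio of peak numbers was lowest on X, at 0.905 (Poisson 95% interval 0.847 to 0.967), and highest on 2L, at 1.00 (0.939 to 1.07). Density on X relative to 2L, 2R, 3L and 3R was 0.919 (0.872 to 0.969) in S2 cells and 0.970 (0.922 to 1.02) in larval tissues. The ratio of these values, 0.947 (0.880 to 1.02), had an interval that included 1. Among the 5000 peaks of each list with the highest −log10 p-value, however, the X to autosome ratio was 0.741 (0.685 to 0.801) in S2 cells and 0.941 (0.875 to 1.01) in larval tissues. Among the large arms the shared part of S2 peaks ran from 54.7% (52.4 to 57.1) on 2L to 61.2% (58.8 to 63.5) on X. These intervals did not overlap. On 4 the shared part was 69.0% (58.0 to 78.7) of the 84 S2 peaks.

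The local background under the S2 peaks was low on X. It stood at the lowest value of the list, the genome-wide one, for 58.9% of S2 peaks on X and for 2.62% to 4.89% on 2L, 2R and 3R, with 19.2% on 3L and 27.4% on 4. The median background was 14.4 reads on X and 21.8 on the autosomes in S2 cells, and the median pileup 77 and 105 reads. In larval tissues the medians were 15.4 and 18.9 for background and 56 and 63 for pileup. The part of this background and of X copy number in the peak density and widths on X was not tested. Which control library set the background is not given, and the only S2 input in the labels is marked as re-used.

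**Figure D4:**
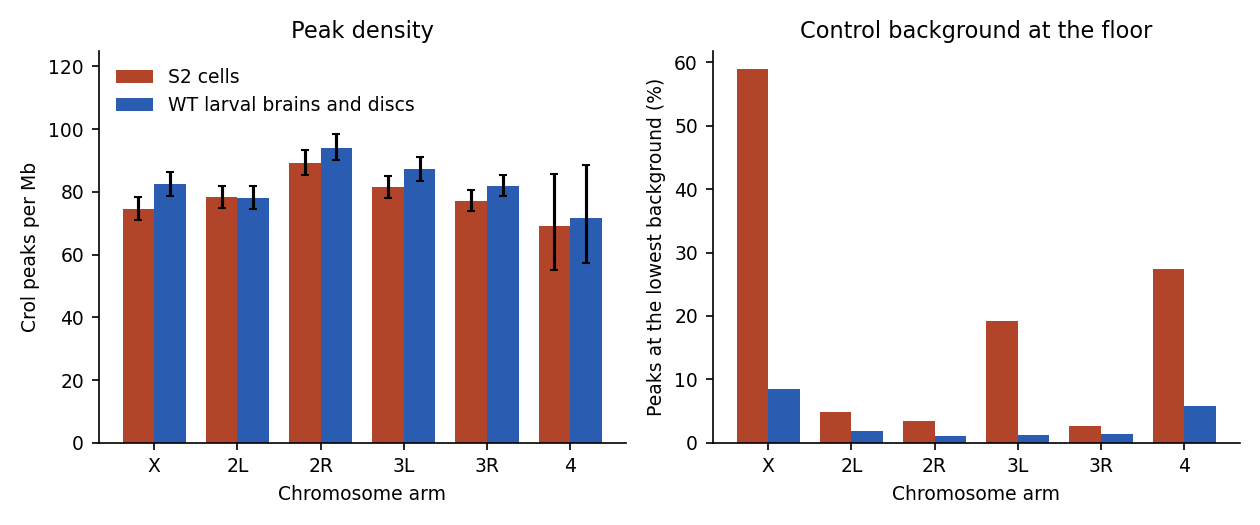
Left, Crol peaks per Mb by chromosome arm in S2 cells and larval tissues, with Poisson 95% intervals; right, percent of peaks whose local background equals the lowest of the list. Densities of the sources lie close together on every arm, while 58.9% of S2 peaks on X, 27.4% on 4 and 19.2% on 3L sit at the lowest background.

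A stretch of 3L showed the same low background. The stretch from 3500001 to 13500000, chosen after its values were seen, held 861 S2 peaks. The S2 peaks ranked 1, 17 and 23 lay in it, but their pileup and background could not be recovered and are not counted here. Of the S2 peaks with a recovered background, 38.3% sat at the lowest value. The median background was 15.4 reads, against 23.1 before and 21.4 after this stretch. The larval medians were 18.2, 19.3 and 18.9. The S2 peaks in the stretch had a median pileup of 88 reads, against 114 before and 105.5 after it, but a median fold enrichment of 5.25, against 4.83 and 4.88. Of the 5 S2 peaks with the highest fold enrichment and no WT larval Crol peak within 1000 bp, the 4 on 3L all lay inside it. The share with a larval overlap was 54.6% (51.2 to 58.0) within the stretch, against 49.6% (44.5 to 54.7) before and 59.3% (55.7 to 62.9) after it. The part of the low background in the ranks of these peaks was not tested.

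Along the chromosomes the numbers of all peaks of the 2 sources rose and fell together, but the numbers of their unshared peaks did not follow each other. In the 233 bins of 500 kb with at least 10 unshared peaks, of 243 bins in all, the numbers of all S2 and all larval peaks correlated with a Spearman rho of 0.680. The numbers of unshared S2 and unshared larval peaks had a rho of -0.02. The counts of all peaks include the shared peaks of both sources, so a positive correlation between them is partly built in. The bins were also selected by their unshared peaks. Both values are descriptions across bins that share gene density and mappability. In 158 bins the unshared counts were within a factor of 2 of each other. A bin was called rich in one source when its unshared peaks numbered at least 3 times those of the other. This held for 12 bins (5.15%) in favour of S2 cells and for 21 bins (9.01%) in favour of larval tissues. At a factor of 2 the numbers were 33 and 42.

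**Figure D5:**
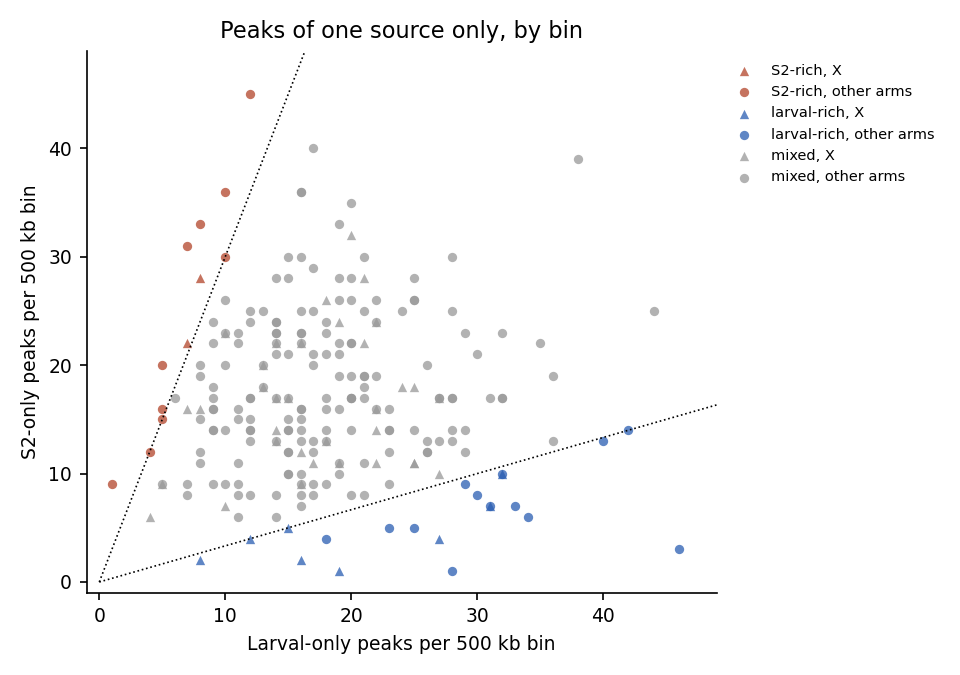
Unshared S2 peaks against unshared larval peaks in 233 bins of 500 kb, with triangles for bins on X; dotted lines mark a factor of 3. The 12 bins rich in S2 peaks lie above the upper line or on it, and the 21 bins rich in larval peaks lie below the lower line or on it.

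Of the 12 bins rich in S2 peaks 6 were on 2L, which held 45 of all 233 bins. Their leading member was on 3L from 3000001 to 3500000, with 45 unshared S2 and 12 unshared larval peaks. The next were on 2L from 13000001 to 13500000 (36 and 10), from 8000001 to 8500000 (33 and 8), from 10000001 to 10500000 (31 and 7) and from 20500001 to 21000000 (30 and 10). Of the 297 unshared S2 peaks in the 12 bins, 89 (30.0%) overlapped a peak of another larval list, against 26.9% over all 233 bins. In the 2L bin from 10000001 this held for 19 of its 31 unshared S2 peaks, so many of its S2 sites were held by a Cg or crol-KO Crol list.

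Of the 21 bins rich in larval peaks, 8 were on X and 6 on 3R, arms that held 44 and 56 of all 233 bins. The largest excess was on 3L from 22000001 to 22500000, with 46 unshared larval and 3 unshared S2 peaks, where 21 of the 46 overlapped another larval list. On 2R from 2000001 to 2500000 there were 34 and 6, and on 3R from 500001 to 1000000 there were 42 and 14. On 2L from 17500001 to 18000000 there were 28 and 1, and 27 of these 28 larval peaks overlapped another larval list. The next was on 3L from 5500001 to 6000000, with 40 and 13. The first 3 bins of X, from 1 to 1500000, were all of this kind, with 19 and 1, 31 and 7, and 32 and 10. These X bins fall outside the rule for named positions and were chosen after their values were seen. Over the 21 bins, 392 (68.7%) of the 571 unshared larval peaks overlapped another larval list, against 74.5% over all 233 bins.

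Away from X the median ratio of background reads was similar in these groups of bins, while single bins varied. The median ratio of S2 to larval background was 1.22 in the 10 autosomal bins rich in S2 peaks, with a range of 1.05 to 2.15. It was 1.21 in the 13 rich in larval peaks, with a range of 0.856 to 1.55, against 1.17 over all 189 autosomal bins. The 8 bins rich in larval peaks and 2 rich in S2 peaks on X are not in these values. The part of background in the counts of unshared peaks was not tested. Bins exactly at the factor of 3 included those on 2L from 15500001 to 16000000, with 12 unshared S2 and 4 larval peaks, and on 3R from 500001 to 1000000, with 42 larval and 14 S2. Those just short of it were on 3L from 20000001 to 20500000, with 17 S2 and 6 larval, and on 3L from 10000001 to 10500000, with 36 larval and 13 S2.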

How the data were processed

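Crol ChIP-seq peak lists of S2 cells and of WT larval brains and discs were compared. As the methods state, the authors trimmed reads with Trim Galore 0.6.5, aligned them to dm3 with Bowtie2 2.3.5, removed duplicates with SAMtools 1.13, pooled replicates and called narrow peaks with MACS2 2.2.5 at a q-value of 0.05, with reads extended to 300 bp. The control used for calling is not given in the sources used here. The deposited columns are a score, which is 10 times the −log10 q-value, the fold enrichment (a ratio), the −log10 p-value and −log10 q-value, and the summit offset.

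MACS gives fold enrichment as pileup plus 1 over background plus 1 and a Poisson p-value, so pileup and background were solved for. A whole-number pileup, matching the −log10 p-value within 0.1%, was found for 97.6% of S2 and nearly all larval peaks. The exceptions were left out of pileup and background values. They included the S2 peaks ranked 1, 17 and 23, so some of the strongest S2 peaks are missing from those values. The lowest background gave an estimate of depth, 5.77 M and 4.24 M reads, for a genome of 120 Mb. It is not a count of the reads in the libraries.

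Peaks were matched by 1 bp overlap. Shares carry exact Clopper-Pearson intervals, medians order-statistic intervals and densities Poisson intervals, over arm spans from the first to the last peak in the 5 lists. One-to-one pairs are peaks that each overlap exactly 1 peak of the other list. Python 3.11.15, pandas 2.3.3 and scipy 1.17.1 were used, and the functions were tested on simulated data. Positions named were the 5 pairs with the lowest rank sum, the 3 pairs in each direction with the largest rank difference among the top 1000 of a list, the 5 strongest peaks of each list and the 3 longest runs with no peak of the other list within 1000 bp, and the 5 richest bins of each source. The members, lists and rules were chosen with earlier results of these data known. Stretches of 3L were chosen after seeing the bins. Peak numbers are skipped 342 times in the S2 list and 332 times in the larval list, and those peaks were not analysed here. The labels give 34 samples, and the other antibodies, a first set of 2 WT larval CrolN samples and the input libraries were not used here. Loci fixed for counting by gene, and marker loci, were not counted, because no dm3 annotation was used.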

Additional observations from a re-analysis of the deposited data

Results flagged for a closer look

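The comparison left out the sequences that dm3 labels heterochromatic. The S2 list held 46 Crol peaks there and the larval list 39, and no control list was analysed. An overlap with the other source was found for 29 of the S2 peaks (63.0%, 47.5 to 76.8) and for 29 of the larval peaks (74.4%, 57.9 to 87.0), with median fold enrichments of 4.15 and 3.79. Both intervals include the share found on the arms.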

How the results depend on the processing

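An overlap of 50% of both peaks lowered the shared part to 44.6% of S2 and 42.2% of larval peaks, with a median summit distance of 35 bp, a width ratio of 1.17 and a rank correlation of 0.595. Windows of 250 bp around the summits gave 54.6% and 51.6%, and a −log10 q-value of at least 5 gave 57.2% and 60.7%. With the 5000 peaks of highest −log10 p-value the larval share was 60.2% and the X to autosome density of S2 peaks 0.741. Over every overlapping pair the summit distance was 43 bp, and ranks by −log10 q-value gave a correlation of 0.535. At a factor of 2 there were 33 bins rich in S2 and 42 in larval peaks. Of the alternatives chosen after seeing the data, leaving out S2 peaks of 1500 bp or more gave 55.4% and 47.6%, the latter because larval peaks lost their wide partners, while 8 further values, without the X or without peaks where the other list skips a number, stayed within the intervals or within 1.5 times the count. So did 13 values under the other alternatives. No paired analysis was possible because replicates were pooled before calling, and no replicate could be left out. The pooling, the lower estimated depth of the larval list and the lack of a second S2 list limit all comparisons.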
